A study of Homo sapiens with 4 samples.

Results

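The 10 genes described here encode parts of the contractile actin apparatus: ACTA2, TAGLN, CNN1, MYL9, TPM1, TPM2, TPM3, TPM4, ACTN1 and CALD1. They were chosen by symbol, with no threshold on a measured value, but with earlier results of these data known. All 10 were found among the 57820 genes that the deposited transcript counts gave when summed per gene. The libraries came from SK-N-SH, a human neuroblastoma cell line with both neuron-like and substrate-adherent cells. In 2 libraries the cells carried a lentivirus expressing the long non-coding RNA RP5-998N21.4 from the EF1a promoter (OE), and in the other 2 libraries they carried the same lentivirus with no insert (vector control), on a wild-type genotype. The vector control libraries are titled WT in the labels, but their treatment label gives the empty vector, so no uninfected cells were compared. The sources used here do not say whether the 2 libraries of a group came from separate infections, so the p-values measure the spread between these libraries, which may be technical. The comparison asks which transcripts differed when RP5-998N21.4 was raised.

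Actin filaments pull on cells and on their surroundings when myosin II slides along them. Tropomyosins lie along the filament and set which motors and binding proteins reach it, caldesmon and calponin hold back the motor, alpha-actinin crosslinks filaments into bundles and stress fibres, and myosin light chains tune the motor. Smooth muscle alpha-actin, transgelin and calponin are the usual markers of smooth muscle and of activated fibroblasts, and in neuroblastoma lines genes of this kind are characteristic of mesenchymal rather than adrenergic cells. Many of these genes are targets of serum response factor (SRF), which binds a CArG box, an A- and T-rich core between a CC and a GG pair, together with myocardin-related cofactors.

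The total count per library was 23785164 and 24098041 in vector control libraries and 24601728 and 28307591 in OE, and 20528 genes passed the filter on low counts. RP5-998N21.4 itself had 32 and 33 counts in vector control libraries and 2407 and 2808 counts in OE, so each library matched its label. Transcript counts were uneven between libraries of the same group: of 20408 transcripts with at least 100 counts in some library, 4064 (19.9%) had 1 library more than 10-fold away from each of the others. Of the 20 such transcripts of the contractile genes, 6 did so, and they belonged to TPM1, TPM3 and TPM4. How reads shared by transcripts of a gene were assigned is not given in the sources used here, so a switch between transcripts and a different assignment of the same reads cannot be told apart in these counts.

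The promoters of the 3 genes that were lower in OE at an unadjusted p under 0.05, ACTA2, CALD1 and ACTN1, are shown because SRF acts through sequence of this kind. Each holds 250 bases before and 50 bases after a transcription start, taken from RefSeq on GRCh38.p14 and written 5′ to 3′ on the strand of the gene. The ACTA2 stretch is chr10:88952724-88953023 on the minus strand, the CALD1 stretch is chr7:134891208-134891507 on the plus strand, and the ACTN1 stretch is chr14:68979253-68979552 on the minus strand. Capitals mark CArG boxes in which at most 1 of the 6 inner bases was not A or T, read on both strands.
ACTA2 promoter: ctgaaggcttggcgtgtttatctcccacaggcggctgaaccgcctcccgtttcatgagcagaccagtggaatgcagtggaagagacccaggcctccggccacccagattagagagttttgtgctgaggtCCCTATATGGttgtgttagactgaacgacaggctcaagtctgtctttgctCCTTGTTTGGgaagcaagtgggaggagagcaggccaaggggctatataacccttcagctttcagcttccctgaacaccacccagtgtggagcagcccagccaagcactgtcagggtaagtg
CALD1 promoter: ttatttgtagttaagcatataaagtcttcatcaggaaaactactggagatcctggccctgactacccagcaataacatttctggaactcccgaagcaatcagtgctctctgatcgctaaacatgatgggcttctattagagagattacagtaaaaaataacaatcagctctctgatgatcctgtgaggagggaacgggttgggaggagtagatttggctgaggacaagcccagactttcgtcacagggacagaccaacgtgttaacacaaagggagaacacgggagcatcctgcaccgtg
ACTN1 promoter: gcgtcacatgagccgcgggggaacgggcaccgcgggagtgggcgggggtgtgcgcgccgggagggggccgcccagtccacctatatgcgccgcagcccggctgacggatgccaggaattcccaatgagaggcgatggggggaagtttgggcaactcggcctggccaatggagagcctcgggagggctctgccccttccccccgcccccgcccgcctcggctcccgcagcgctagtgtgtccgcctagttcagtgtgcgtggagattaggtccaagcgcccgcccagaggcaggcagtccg
The ACTA2 stretch held 2 matches, CCCTATATGG starting 121 bases before the start site and CCTTGTTTGG starting 71 bases before it. The CALD1 and ACTN1 stretches shown held none, which says only that these letters are not in these windows. Other start sites of both genes had a match: a strict box, CCAAAAATGG, starting 171 bases before an ACTN1 start in chr14:68977517-68977816, and CCTAAAGAGG, with 1 inner base off, starting 26 bases before a CALD1 start in chr7:134711249-134711548. The second strict box of the set, CCAAATAAGG, started 173 bases before a start of TPM4, whose groups overlapped (chr19:16067288-16067587). Promoters were found for 8 of the 10 genes, TAGLN and MYL9 having no entry, and gave 19 stretches, of which 4 held a match with at most 1 inner base off and 2 held a strict match. Among all 35116 promoters of the table these shares were 8.13% and 1.29%. The ACTA2 stretch shown is the start of transcript ENST00000224784, the CALD1 stretch that of ENST00000393118, and ENST00000193403 of ACTN1 starts 138 bases upstream of the start shown, within that stretch.

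Of the 10 contractile genes, 8 had enough counts to be tested, 7 with a lower and 1 with a higher estimate in OE. At an unadjusted p under 0.05 in the edgeR quasi-likelihood test, 3 were lower (ACTA2, ACTN1 and CALD1) and 0 were higher, where 10.7% of all tested genes were lower and 10.1% higher. In 5 genes both OE libraries lay below both vector control libraries, and in 0 both lay above, where the shares over all genes were 27.6% and 27.8%. The median log2 fold change of the 8 tested genes was −0.43, against 0.01 over all tested genes, whose middle 50% ran from −0.28 to 0.32. With the thresholds of the study (adjusted p under 0.01, log2 fold change beyond 0.5 in either direction) edgeR called 0 of the 8, and 0% of all tested genes. RP5-998N21.4 itself, with a log2 fold change of 6.11, had an adjusted p of 0.0109 (edgeR), so this test did not call it either. DESeq2, the test that the study names for these thresholds, was run here as an alternative. It called 1 of the 8 lower (CALD1) and 0 higher, where it called 4.42% of all genes lower and 4.35% higher. Single values cannot be tested exactly in this design, since an exact permutation test of 2 libraries against 2 gives no two-sided p below 0.333.

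**Figure D1:**
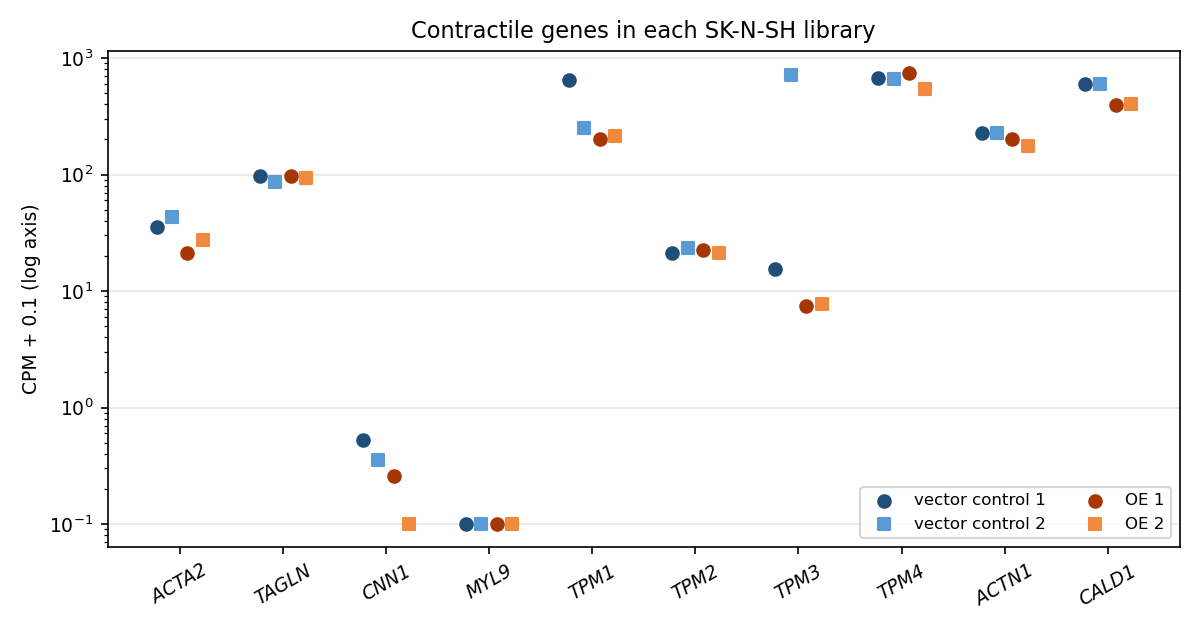
Library-scaled counts (CPM, plus 0.1, log axis) of the 10 contractile genes, with 1 point for each library, circles for replicate 1 and squares for replicate 2 of the vector control (blue) and OE (orange). CALD1, ACTN1 and ACTA2 sit lower in both OE libraries, vector control 1 stands apart for TPM1 and vector control 2 for TPM3, and MYL9 lies at 0 in all 4 libraries.

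CALD1, which encodes caldesmon, the filament protein that blocks myosin until it is phosphorylated, showed the smallest p of the 10. It lies on GRCh37 at chr7:134429003-134655480 on the plus strand and is a protein-coding gene. Its counts were 13952 and 14098 in vector control libraries and 9835 and 11754 in OE, or 599.2 and 600.0 CPM against 391.9 and 406.4 CPM, where CPM is counts scaled to the same library size and composition. Both OE libraries were lower, the groups did not overlap, and the libraries within a group lay close together. The means were 599.6 ± 0.577 CPM (SD, n = 2) and 399.1 ± 10.2 CPM (SD, n = 2). The log2 fold change was −0.59 with a standard error of 0.0490 and an adjusted p of 0.0552 (edgeR, Benjamini-Hochberg over all tested genes), above the threshold, and its unadjusted p was 0.000398. The estimate stayed between −0.61 and −0.56 when each library was left out in turn. DESeq2 gave a log2 fold change of −0.59 with an adjusted p of 6.244e-41.

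The CALD1 counts came mostly from transcript ENST00000393118, a protein-coding transcript of 13 exons. It held 11691 and 10827 counts in vector control libraries and 7429 and 8721 in OE, both OE libraries being lower (log2 fold change −0.70, adjusted p = 0.0994, edgeR). The second transcript, ENST00000361388, held 2166 and 3158 counts against 2398 and 2986, with overlapping groups and a log2 fold change of −0.20. It made up 15.5% and 22.4% of the gene's counts in vector control libraries and 24.4% and 25.4% in OE, both OE shares being the higher.

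ACTA2, smooth muscle alpha-actin (GRCh37, chr10:90694831-90751096, minus strand, protein-coding), had 816 and 1020 counts in vector control libraries and 527 and 787 in OE. This was 35.0 and 43.4 CPM against 21.0 and 27.2 CPM. Both OE libraries were lower and the groups did not overlap, but the libraries of each group differed more from each other than for CALD1. The means were 39.2 ± 5.92 CPM (SD, n = 2) and 24.1 ± 4.39 CPM (SD, n = 2). The log2 fold change was −0.70 with a standard error of 0.199 and an adjusted p of 0.186 in edgeR, and 0.0118 in DESeq2. Its unadjusted p of 0.0270 in edgeR rose to 0.0976 without vector control 2 and to 0.0847 without OE 1, with log2 fold changes of −0.55 and −0.53.

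As the reads were assigned, the ACTA2 difference lay in 1 of its transcripts. ENST00000224784, the protein-coding transcript whose promoter is printed above, had 413 and 539 counts in vector control libraries and 163 and 93 in OE. Both OE libraries were lower, with a log2 fold change of −2.08, a standard error of 0.472 and an adjusted p of 0.237 in edgeR and 0.000472 in DESeq2. ENST00000458208 had 403 and 465 counts against 364 and 684, so OE 1 was the lowest and OE 2 the highest of the 4 libraries and the log2 fold change was 0.03. The exons of ACTA2 overlap those of FAS, a death receptor gene on the opposite strand, by 380 bases and those of the antisense RNA ACTA2-AS1 by 1638 bases. FAS had 100 and 168 counts in vector control libraries and 1113 and 1369 in OE, and ACTA2-AS1 had 138 and 212 against 228 and 197. The sources used here do not say whether strand was used in counting, so reads of ACTA2 and of these genes cannot be told apart where they overlap, and ACTA2 values are uncertain to that extent.

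ACTN1, non-muscle alpha-actinin 1, a crosslinker of stress fibres and focal adhesions (GRCh37, chr14:69340845-69446157, minus strand), had 5287 and 5389 counts in vector control libraries and 5046 and 5114 in OE. This was 227 and 229 CPM against 201 and 177 CPM, with both OE libraries lower and no overlap. The means were 228 ± 1.62 CPM (SD, n = 2) and 189 ± 17.2 CPM (SD, n = 2). The log2 fold change was −0.27 with a standard error of 0.0897 and an adjusted p of 0.223 in edgeR and 0.0249 in DESeq2. The unadjusted p, 0.0419 in edgeR, was above 0.05 with upper-quartile scaling (0.0639) and without vector control 1 (0.104), vector control 2 (0.117) or OE 2 (0.102). With same-numbered libraries paired (a replicate block) it was 0.0752, and on the transcript of highest mean count 0.0527 (edgeR). Nearly all of the ACTN1 counts came from ENST00000193403, a protein-coding transcript of 21 exons, with 5161 and 5266 counts against 4907 and 4937.

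TAGLN, which encodes the actin-bundling protein transgelin (SM22), had overlapping groups. It lies at chr11:117070086-117078180 on the plus strand of GRCh37. Its counts were 2238 and 2016 in vector control libraries and 2425 and 2714 in OE, or 96.1 and 85.8 CPM against 96.6 and 93.8 CPM. The groups overlapped, and the means were 91.0 ± 7.29 CPM (SD, n = 2) and 95.2 ± 1.99 CPM (SD, n = 2). The log2 fold change was 0.07 with a standard error of 0.0965 and an adjusted p of 0.746 (edgeR). Its main transcript, ENST00000392951, held 1669 and 1497 counts against 1892 and 2102. The retained-intron transcript ENST00000533863 held 492 and 412 counts against 430 and 468. PCSK7, on the opposite strand, shares 2233 exon bases with TAGLN and had 2214 and 2876 counts in vector control libraries and 2792 and 3205 in OE.

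CNN1 and MYL9 were near or at 0. CNN1, which encodes calponin 1 (chr19:11649582-11661138, plus strand), had 10 and 6 counts in vector control libraries and 4 and 0 in OE, too few for the filter on low counts with all 4 libraries, and no fold change is given. The vector control counts were all in transcript ENST00000592923 and the 4 counts of OE 1 in ENST00000586577. MYL9, the regulatory light chain of smooth muscle and non-muscle myosin II (chr20:35169900-35179850, plus strand), had 0 counts in all 4 libraries over both of its listed transcripts. A count of 0 allows up to 3 counts, or between 0.104 and 0.129 CPM depending on the library, and this limit covers counting error only. Its paralogs MYL12A and MYL12B were at 145 ± 0.975 and 136 ± 8.02 CPM (SD, n = 2) in vector control libraries and 134 ± 2.97 and 117 ± 1.18 CPM (SD, n = 2) in OE, so light chain transcripts of that family were counted.

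**Figure D2:**
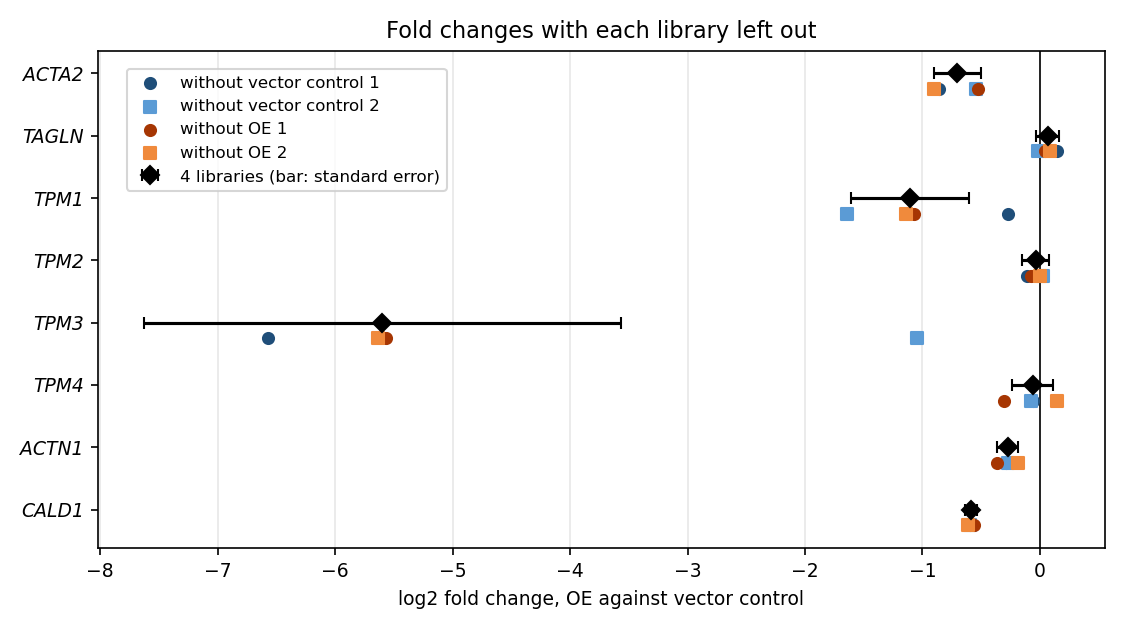
Log2 fold changes of the 8 tested contractile genes, OE against vector control (black diamonds, bars show the standard error), with the estimate after leaving out each library (coloured points below). CALD1, ACTA2, ACTN1, TPM1 and TPM3 stay below 0 in every fit shown, but TPM1 moves to −0.27 without vector control 1 and TPM3 to −1.04 without vector control 2.

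Of the 4 tropomyosins, 0 reached an unadjusted p under 0.05 in edgeR on full gene sums, with the low-count filter and all 4 libraries. For TPM1 and TPM3, 1 library set the size of the estimate. TPM1 (chr15:63334819-63364114, plus strand of GRCh37), whose products include both muscle and stress-fibre isoforms, had 15046 and 5876 counts in vector control libraries and 5094 and 6171 in OE. This was 646 and 250 CPM against 203 and 213 CPM, vector control 1 standing far above the other 3 libraries. Its log2 fold change was −1.11 with a standard error of 0.50 and an adjusted p of 0.319 (edgeR). Without vector control 1 the log2 fold change was −0.27 at an unadjusted p of 0.0439 (edgeR), so this library set the size of the estimate.

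The TPM1 excess of vector control 1 lay in 1 transcript. ENST00000267996, a protein-coding transcript of 9 exons, had 13445 counts in vector control 1 and 0 in each of the other 3 libraries. ENST00000560975, annotated as a retained-intron transcript, had the opposite pattern, with 2 counts in vector control 1, 4284 in vector control 2, and 3822 and 4597 in OE. The third transcript with a large share, ENST00000334895, had 877 and 1154 counts against 864 and 1176 and did not separate the groups. When the transcripts in which 1 library stood more than 10-fold apart were left out, an alternative chosen after seeing the data, TPM1 kept 1599 and 1592 counts in vector control libraries and 1272 and 1574 in OE. Its log2 fold change was then −0.38 with an unadjusted p of 0.0115 and an adjusted p of 0.125 (edgeR), and 4 of the contractile genes were lower at an unadjusted p under 0.05 in that fit, where 10.9% of all tested genes were.

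TPM3 (chr1:154127784-154167124, minus strand of GRCh37), a tropomyosin of slow muscle and of non-muscle cells, varied most between libraries among the 8 tested genes. It had 361 and 16817 counts in vector control libraries and 185 and 223 in OE, or 15.5 and 716 CPM against 7.37 and 7.71 CPM. Vector control 2 was the library apart, although vector control 1 was also above both OE libraries. The log2 fold change was −5.60 with a standard error of 2.03 and an adjusted p of 0.250 in edgeR and 0.0182 in DESeq2. The unadjusted p was 0.0547 in edgeR, 0.0441 in edgeR with every gene of at least 1 count, and 0.00283 in DESeq2. Without vector control 2 it was −1.04 at an unadjusted p of 0.00916, and without vector control 1 it was −6.57 with an adjusted p of 0.0472 (edgeR). ENST00000368533, protein-coding with 8 exons, held 288 and 16636 counts in vector control libraries and 125 and 131 in OE. The smaller transcripts ENST00000368531, with 45 and 24 counts against 26 and 45, and ENST00000368530, with 25 and 14 against 30 and 44, did not follow it. Without the transcripts that stood apart, TPM3 kept 73 and 40 counts against 60 and 92, the groups overlapped, and the log2 fold change was 0.20. Processed copies of TPM3 were counted as genes of their own, with 1239 and 1565 counts for TPM3P8 in vector control libraries and 1639 and 1636 in OE, so reads may have been divided among near-identical sequences and TPM3 is uncertain for this reason too.

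The gene totals of TPM4 and TPM2 overlapped between the groups. TPM4, the tropomyosin of short non-muscle filaments (chr19:16177831-16213812, plus strand), had 15632 and 15617 counts in vector control libraries and 18562 and 15605 in OE. This was 671 and 665 CPM against 740 and 540 CPM, OE 1 being the highest and OE 2 the lowest (log2 fold change −0.06, standard error 0.171, adjusted p = 0.872, edgeR). The transcript that held its counts differed in OE 1. The single-exon retained-intron transcript ENST00000591226 held 89.3% and 88.4% of the gene's counts in vector control libraries and 89.2% in OE 2, but 2.82% in OE 1. ENST00000300933 had 1538 and 1695 counts in vector control libraries, 17882 in OE 1 and 1545 in OE 2. TPM2, beta-tropomyosin (chr9:35681989-35690053, minus strand), had 494 and 549 counts against 560 and 612, or 21.2 and 23.4 CPM against 22.3 and 21.2 CPM. Its groups overlapped and its log2 fold change was −0.04 with a standard error of 0.114 and an adjusted p of 0.890 (edgeR). Of its transcripts, ENST00000378300 had 468 and 504 counts against 424 and 554, and both OE libraries were lower in CPM (log2 fold change −0.21, adjusted p = 0.654, edgeR). ENST00000378292 had 26 and 45 counts against 99 and 58, and both OE libraries were higher (log2 fold change 0.96, adjusted p = 0.589, edgeR), so neither transcript passed the test.

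**Figure D3:**
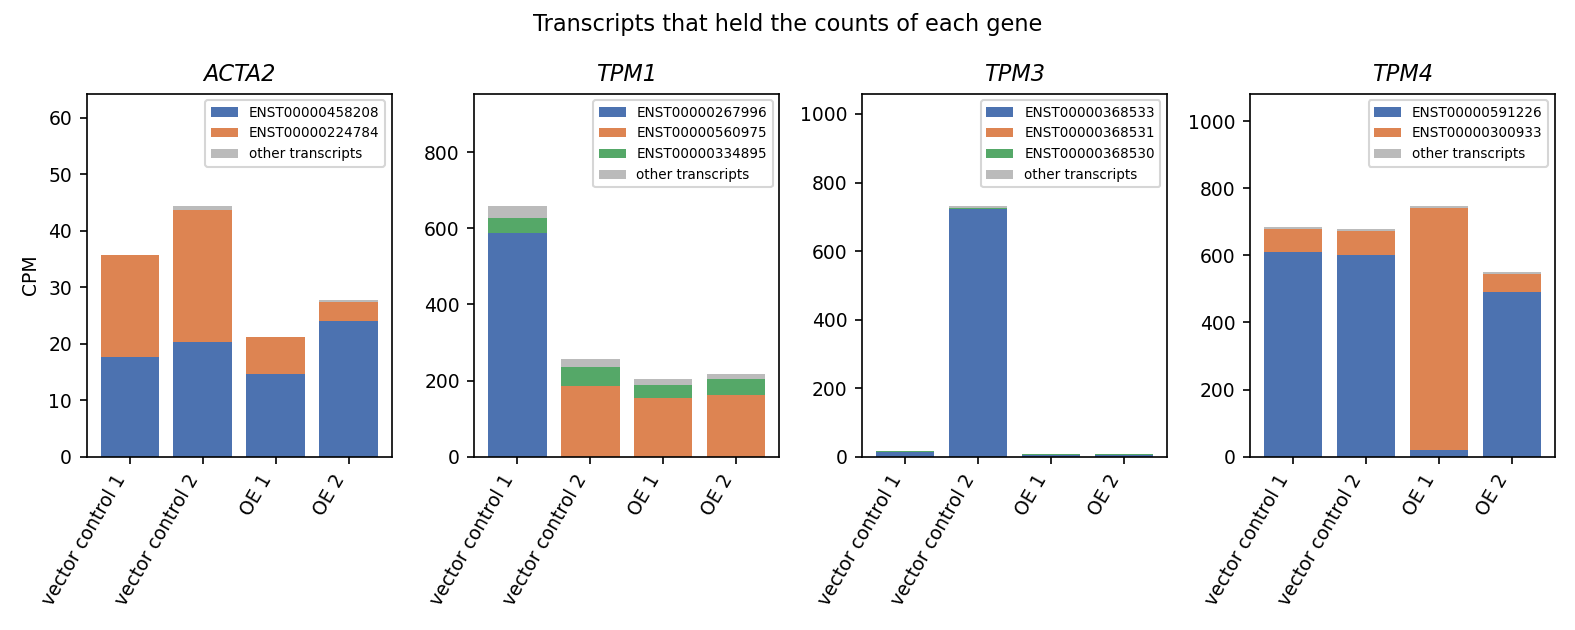
CPM of the transcripts that held at least 10% of a gene's counts in some library, stacked per library for ACTA2, TPM1, TPM3 and TPM4, with the remaining transcripts in grey (transcript libraries were scaled on their own, so totals differ slightly from the gene values). ENST00000267996 of TPM1 appears in vector control 1 alone, ENST00000368533 of TPM3 dominates vector control 2, and OE 1 differs from the other libraries in the transcript that holds TPM4.

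Over the 154 listed transcripts of the 10 genes, 52 had counts and 24 were tested. At an unadjusted p under 0.05, 3 of the 24 passed, where 14.6% of all 30255 tested transcripts did. These were ENST00000393118 of CALD1, ENST00000224784 of ACTA2 and ENST00000193403 of ACTN1, the same 3 genes as in the gene sums, and all 3 were lower in OE. edgeR called 0 of the 24 at the study's thresholds and 0% of all transcripts. DESeq2 called 3 of the 24, all lower, where it called 4.71% of all tested transcripts lower. These were ENST00000393118, ENST00000224784 and ENST00000368533 of TPM3. The last had 288 and 16636 counts in vector control libraries and 125 and 131 in OE, vector control 2 standing far above the others.

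Levels can be set against each other only per length, and lengths were known for nearly all counts of 6 genes. Per kilobase of transcript, TPM4 was at 254 ± 1.63 CPM per kilobase (SD, n = 2) in vector control libraries and 261 ± 78.9 (SD, n = 2) in OE. ACTN1 was at 62.5 ± 0.304 and 52.1 ± 4.80, and TAGLN at 27.0 ± 1.49 and 28.3 ± 0.354 on the same scale. So TPM4 stood above ACTN1 and ACTN1 above TAGLN in all 4 libraries. CNN1 reached at most 0.233 CPM per kilobase, and TPM1 and TPM3 had no stable level, since TPM1 ran from 89.9 to 397 and TPM3 from 3.80 to 231. No level is given for ACTA2, TPM2 and CALD1, because 39.2%, 10.3% and 78.4% of their counts came from transcripts with a known length.

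The other genes of the actomyosin system are given by list. At an unadjusted p under 0.05 (edgeR), 10.7% of all tested genes were lower and 10.1% higher, to be set beside each list. The 2 non-muscle actins were both lower in OE at an unadjusted p under 0.05. ACTG1 was at 1781 ± 109 CPM (SD, n = 2) in vector control libraries and 1035 ± 36 CPM (SD, n = 2) in OE, giving a log2 fold change of −0.78 and an adjusted p of 0.0521 (edgeR). ACTB was at 1199 ± 19.5 and 706 ± 26.6 CPM (SD, n = 2), giving a log2 fold change of −0.76 and an adjusted p of 0.0386 (edgeR). Reads shared with processed copies of these genes were not examined. The muscle actins ACTA1, ACTC1 and ACTG2 had at most 5 counts in a library and were not tested.

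Of 9 paralogs of the contractile genes, 7 were tested, of which 2 were lower at an unadjusted p under 0.05, 0 were higher and 5 did not pass. The 2 were ACTN4, the second non-muscle alpha-actinin (log2 fold change −0.70, adjusted p = 0.0941, edgeR), and CNN2, the calponin of non-muscle cells (−0.87, adjusted p = 0.0521, edgeR). The median log2 fold change of the list was −0.26. Among 8 tested genes of myosin II and of the enzymes that phosphorylate and dephosphorylate its light chain, 3 were lower and 2 higher (median −0.42). The non-muscle heavy chains MYH9 and MYH10 had log2 fold changes of −0.36 and −0.56. MYLK, the light chain kinase, was at 258 and 479 CPM in vector control libraries and 192 and 176 CPM in OE, and PPP1CB, a phosphatase catalytic subunit, at 70.3 and 15.7 CPM against 265 and 300 CPM. For both of these genes the vector control libraries differed widely from each other.

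Regulators of the pathway moved in both directions. Of 10 tested genes of the RhoA, ROCK and SRF route, 2 were lower, 1 was higher and 7 did not pass (median −0.10). Shares over all tested genes were 10.7% lower and 10.1% higher. RHOA, the GTPase that drives stress fibre assembly, had a log2 fold change of −0.29, and LIMK2, a kinase that inactivates cofilin, of −0.79. RHOB, an immediate early GTPase of the same family, was higher, at 200 ± 0.713 CPM (SD, n = 2) in vector control libraries and 297 ± 1.69 CPM (SD, n = 2) in OE, a log2 fold change of 0.57. SRF itself, named here for its role, was at 122 and 115 CPM in vector control libraries and 116 and 98.9 CPM in OE, with overlapping groups and a log2 fold change of −0.14 (adjusted p = 0.538, edgeR). Its smooth muscle cofactor MYOCD had 0 counts in all 4 libraries.

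Of 17 known SRF targets outside the 10 genes, 10 were lower, 1 was higher and 6 did not pass, with a median log2 fold change of −0.31. This list shares ACTB, ACTG1, MYH9 and SRF with the lists above. Over all tested genes, 10.7% were lower and 10.1% higher. ZYX, the focal adhesion protein zyxin, was at 1079 ± 87.2 CPM (SD, n = 2) in vector control libraries and 584 ± 7.75 CPM (SD, n = 2) in OE, a log2 fold change of −0.89 (adjusted p = 0.0533, edgeR). CYR61, a matricellular protein, had a log2 fold change of −0.28. Of 14 genes that set the length and turnover of thin filaments, 4 were lower, 1 was higher and 9 did not pass (median −0.34). PFN1 and DSTN, which load and sever actin, had log2 fold changes of −0.46 and −0.53, and TMOD1, which caps the pointed end, of 0.82. TMSB4X, which had the highest mean CPM of that list without regard to length, was at 695 ± 77.8 CPM against 632 ± 79.4 CPM (SD, n = 2) and did not pass.

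**Figure D4:**
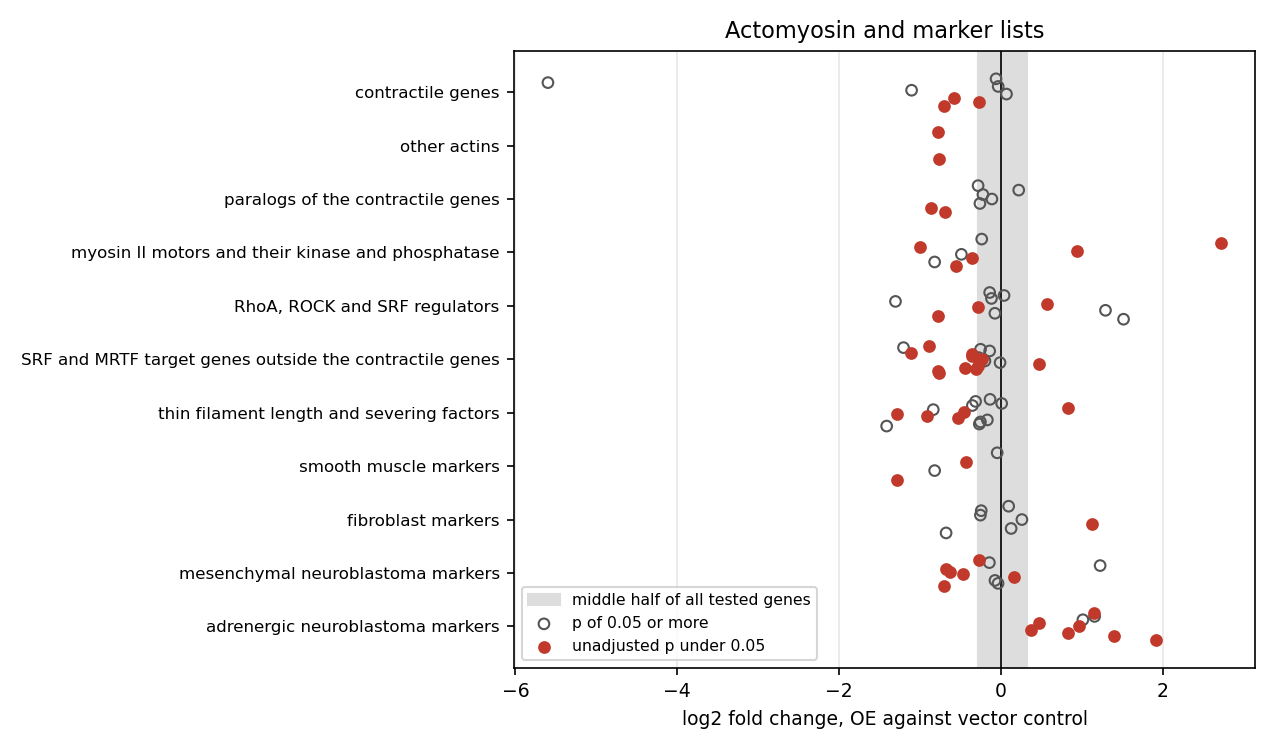
Log2 fold changes (OE against vector control) of the tested genes of each list, filled where the unadjusted p of the edgeR test was under 0.05 and open otherwise, with the grey band marking the middle 50% of all tested genes (−0.28 to 0.32). Most filled points of the actin, SRF target and thin filament lists lie below 0 and all 7 of the adrenergic list lie above 0. The skeletal and cardiac muscle list, with 1 tested gene, is not drawn.

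Markers of cell types and states moved between the groups as well. In bulk RNA, fewer cells of a type and less RNA per cell cannot be told apart. The shares to set beside each marker list were 10.7% of all tested genes lower and 10.1% higher at that p-value threshold (edgeR). The line has both adrenergic and mesenchymal cells, and of 9 tested adrenergic markers 7 were higher in OE at an unadjusted p under 0.05, 0 were lower and 2 did not pass. Their summed level was 594 and 663 CPM in vector control libraries and 1061 and 1004 CPM in OE, with a median log2 fold change of 1.01. CHGA, which encodes chromogranin A, had a log2 fold change of 1.39, and the transcription factors HAND2, GATA2 and GATA3 had 0.47, 0.37 and 0.96. TH, tyrosine hydroxylase, which defines catecholamine synthesis, was at 0 in all 4 libraries.

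Of 10 mesenchymal markers, 5 were lower, 1 was higher and 4 did not pass, with a median of −0.21. The summed level was 2846 and 2793 CPM in vector control libraries and 3317 and 2361 CPM in OE, with overlapping groups. CD44, a hyaluronan receptor, and PRRX1, a mesenchymal transcription factor, had log2 fold changes of −0.71 and −0.64, and NOTCH2 had 0.16. VIM, vimentin, was at 349 ± 0.971 CPM (SD, n = 2) in vector control libraries and 815 ± 621 CPM (SD, n = 2) in OE and did not pass. The part of cell state in the values of the contractile genes was not tested.

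Of 7 smooth muscle markers 4 were tested, of which LMOD1 (log2 fold change −1.28) and SMTN (−0.44) were lower and SYNPO2, with the highest mean CPM of the list without regard to length, was at 98.5 ± 10.2 and 95.2 ± 3.09 CPM (SD, n = 2). The list's summed level was 146 and 132 CPM in vector control libraries and 117 and 122 CPM in OE. Its defining genes were scarce, MYH11 having 24 and 19 counts against 3 and 26 and DES at most 11 counts in a library. Of 9 skeletal and cardiac markers 8 were below 1 CPM on average and 4 were at 0, and MYH3 alone was tested (log2 fold change 0.77). Their summed level was 6.27 and 5.15 CPM in vector control libraries and 10.6 and 8.92 CPM in OE. Of 7 fibroblast markers 1 was higher, the proteoglycan DCN (log2 fold change 1.12), 0 were lower and 6 did not pass. Their summed level was 1497 and 2118 CPM against 1800 and 1116 CPM, and COL1A1 was at 968 ± 101 and 604 ± 394 CPM (SD, n = 2). The part of these cell types in the values of the contractile genes was not tested.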

How the data were processed

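RNA-seq was made from 4 SK-N-SH libraries, 2 OE and 2 vector control, with a TruSeq kit on total RNA. The authors trimmed the reads, used Bowtie2 and hg19 for alignment, and deposited a table of whole-number counts, by transcript, with no pooling. The submitters' processing notes name Bowtie2 2.0.4, Picard 2.21.6, StringTie 2.1.6 and DESeq2, and the counting tool and its use of strand are not given in the sources used here. The 196520 transcript rows were summed per gene. Genes with low counts were removed with filterByExpr, and the libraries were scaled by TMM. OE was tested against vector control with the quasi-likelihood test of edgeR 4.0.16 in R 4.3.3, two-sided, with Benjamini-Hochberg adjustment, and the standard error was taken from the fold change and its F statistic. DESeq2 1.42.0 was an alternative, with others in the closing section, and limma 3.58.1 supplied voom. The edgeR code was also run on simulated counts, whose results are not used here. Positions came from GENCODE lifted to GRCh37.

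The 10 genes and all lists were chosen with earlier results of these data known. All 10 genes were named, with the transcripts holding at least 10% of a gene's counts in some library. In other lists at most 4 genes were named, the highest by mean CPM first and then those at an unadjusted p under 0.05. FAS, PCSK7, ACTA2-AS1 and TPM3P8 were named for shared sequence after their values were seen, as were SRF and the genes given at or near 0. The total counts of 23785164 to 28307591 limit the precision of low genes, and with 2 libraries a group the spread rested on 2 residual degrees of freedom and a common dispersion of 0.122.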

Additional observations from a re-analysis of the deposited data

How the results depend on the processing

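The number of genes called at the study's thresholds was 0 by edgeR's quasi-likelihood test, against 4269 genes at an unadjusted p under 0.05. It was 1800 by DESeq2 (the test the study names), 9 with every gene of at least 1 count, and 1 with each gene's transcript of highest mean count in place of its sum. Among alternatives chosen after seeing the data, it was 8 with the newer edgeR fit, 16 without transcripts that stood apart in 1 library, and 122 at an adjusted p under 0.05. DESeq2 called 2759 transcripts, against 0 by edgeR. The median log2 fold change of the contractile genes was −0.28 on the transcript of highest mean count (7 genes), −0.15 without the transcripts that stood apart, −0.58 with every gene of at least 1 count and −0.61 to −0.28 with each library left out. CNN1 was a 9th gene with every gene of at least 1 count, without OE 1 and without OE 2. Over the same 8 genes these medians were −0.42 with every gene of at least 1 count and −0.45 to −0.28 with a library left out. The number at an unadjusted p under 0.05 was 1 of 7 on the transcript of highest mean count (18.4% of all tested genes), 4 of 8 without the transcripts that stood apart (21.1%) and 2 to 4 of 8 or 9 with a library left out (14.4% to 16.3%). In the latter fits, with 1 library against 2, 5 to 8 had groups that did not overlap, as did 76.2% to 77.8% of all tested genes. Leaving a library out leaves a lone sample in its group, which is assumed to vary like the others, and 0 genes were called in each of those fits.

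The direction of 5 genes reversed. TPM2 was at 0.0034 with upper-quartile scaling and 0.0011 without OE 2, and ran from −0.110 to 0.0300 with each library left out. TAGLN ran from −0.0183 to 0.145 in those fits, being lower without vector control 2. TPM4 ran from −0.308 to 0.147, being higher without OE 2. It was at −1.25 on its transcript of highest mean count, which was low in OE 1. Without the transcripts that stood apart it was at 0.0898, on 129 and 117 counts in vector control libraries and 157 and 143 in OE. TPM3 was at 0.20 without those transcripts and ACTA2 at 0.0386 on its transcript of highest mean count. Both fits left out the transcript in which the assigned counts differed. The causes of the other reversals were not tested. CALD1 passed the threshold under DESeq2 alone, its adjusted p running from 6.244e-41 to 0.296 over the alternatives. Same-numbered libraries did not deviate together (correlation −0.0152). With a replicate block, 3060 genes reached an unadjusted p under 0.05 and 2 of the contractile genes did, ACTN1 no longer, and 0 genes were called. CNN1 passed the filter in 3 alternatives (every gene of at least 1 count, without OE 1 and without OE 2), where its unadjusted p ran from 0.0501 to 0.355, and MYL9 had 0 counts.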
